A study of Mus musculus with 2 samples.

Results

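The platelet-derived growth factor (PDGF) and vascular endothelial growth factor (VEGF) genes described here were 10 of the 33696 genes in the deposited gene list, matched by symbol in both libraries. They comprised 4 receptors (*Pdgfra*, *Pdgfrb*, *Kdr* and *Flt1*) and 6 ligands (*Pdgfa*, *Pdgfc*, *Pdgfd*, *Vegfa*, *Vegfc* and *Vegfd*). Their levels were read in stromal cells of the mouse mammary gland that had been sorted as lineage-negative (depleted for CD45, CD31 and TER-119) and CD24-negative, and profiled by droplet-based single-cell RNA sequencing. The pubertal group was 4 weeks old and the adult group was virgin and 9 weeks old, and both were wild-type C57BL/6 females with no treatment or allele named. Each stage had 1 library, labeled as replicate 2, and each library pooled cells of 2 females. The labels also describe the glands as coming from the same mouse, which was not resolved here. With 1 library per stage there was no replicate check and no test across samples, so each difference compares these libraries and each interval covers counting error only.

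PDGF ligands are secreted dimers that signal through the receptor tyrosine kinases PDGFRα, a widely used marker of fibroblasts, and PDGFRβ, which pericytes and smooth muscle cells need in order to be recruited to vessels. PDGF-A signals through PDGFRα, PDGF-D mainly through PDGFRβ, and PDGF-C and PDGF-D are secreted in a latent form that proteases must cut. VEGF-A acts on blood vessels through KDR (VEGFR2) and FLT1 (VEGFR1), whereas VEGF-C and VEGF-D are best known for lymphatic vessel growth and also need proteolytic processing. In the mammary gland, fibroblasts surround the ducts and the adipose tissue, and mural cells (pericytes and smooth muscle) wrap the vessels.

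Promoter sequences are shown for the genes whose levels moved together in the comparisons that follow. *Pdgfra* and *Vegfc* are shown because both were higher in adult than in pubertal fibroblasts, and *Pdgfc*, *Pdgfd* and *Kdr* because the 3 genes were higher together in fibroblasts with *Pi16* and *Dpp4*. RefSeq promoter windows of build GRCm38.p6 were found for 9 of the 10 genes. None was found for *Pdgfrb*, which was also higher in adult fibroblasts and is missing from the first set. Each sequence is the 250 bases before the RefSeq start, read 5′ to 3′ on the strand of the gene, and capitals mark the motif matches described after them. The *Pdgfra* window is chr5:75152001-75152250 on the + strand and the *Vegfc* window is chr8:54077282-54077531 on the + strand. The *Pdgfc* window is chr3:81036166-81036415 on the + strand, the *Pdgfd* window is chr9:6168236-6168485 on the + strand, and the *Kdr* window is chr5:75978456-75978705 on the - strand.
Pdgfra: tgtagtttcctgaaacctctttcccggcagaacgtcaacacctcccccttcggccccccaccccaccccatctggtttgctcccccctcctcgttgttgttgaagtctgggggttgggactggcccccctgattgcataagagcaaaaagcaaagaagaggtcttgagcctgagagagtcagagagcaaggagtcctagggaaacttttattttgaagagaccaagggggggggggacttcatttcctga
Vegfc: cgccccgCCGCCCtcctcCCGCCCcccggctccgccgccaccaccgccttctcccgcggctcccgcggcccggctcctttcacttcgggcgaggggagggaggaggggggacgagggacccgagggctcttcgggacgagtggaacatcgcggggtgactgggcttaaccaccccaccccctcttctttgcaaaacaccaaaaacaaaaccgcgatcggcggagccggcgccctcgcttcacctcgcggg
Pdgfc: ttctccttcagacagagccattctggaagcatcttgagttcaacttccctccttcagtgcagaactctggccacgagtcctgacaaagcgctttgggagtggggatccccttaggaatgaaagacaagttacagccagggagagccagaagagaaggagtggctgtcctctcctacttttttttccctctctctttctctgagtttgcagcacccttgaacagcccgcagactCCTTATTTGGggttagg
Pdgfd: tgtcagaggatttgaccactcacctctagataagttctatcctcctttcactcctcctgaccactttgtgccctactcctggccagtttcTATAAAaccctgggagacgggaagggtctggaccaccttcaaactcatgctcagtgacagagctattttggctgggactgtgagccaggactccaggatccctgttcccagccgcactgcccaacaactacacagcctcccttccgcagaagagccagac
Kdr: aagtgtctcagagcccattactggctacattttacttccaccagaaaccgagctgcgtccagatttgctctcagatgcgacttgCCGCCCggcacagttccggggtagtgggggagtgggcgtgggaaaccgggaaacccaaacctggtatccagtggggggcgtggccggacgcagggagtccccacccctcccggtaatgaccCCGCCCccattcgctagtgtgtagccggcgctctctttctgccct

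Each window was searched on both strands for 5 motifs. The TATA box was spelled TATAAA. The CCAAT box was searched by the letters of its name. The GC box, bound by factors of the SP family, was spelled GGGCGG. The core of the hypoxia response element was spelled ACGTG. The last was the CArG box, bound by serum response factor. The windows of *Vegfc* and *Kdr* each held 2 GC boxes on the reverse strand, a motif present in 32.7% of 32851 promoter windows of the same length. The *Pdgfc* window held a CArG box, present in 1.47% of windows, ending 7 bases before the start. The *Pdgfd* window held a TATA box, present in 12.4% of windows, 154 bases before the start. No searched motif was found in the *Pdgfra* window. No searched motif was shared by the genes shown of either set, and no match overlapped another. The share of G and C was 71.6% for *Vegfc*, 61.6% for *Kdr*, 54.4% for *Pdgfra*, 53.6% for *Pdgfd* and 50.8% for *Pdgfc*, against a median of 52.4% over all windows. The CCAAT box was present in 33.9% of all windows and the hypoxia core in 16.6%, and neither was found in the 5 windows shown. *Pdgfra* and *Kdr* lie on the same chromosome, with 735 kb between the annotated genes.

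The libraries held 255274670 unique molecular identifiers (UMIs, each a captured transcript) at puberty and 259549498 in the adult, with medians of 11726 and 10781 UMIs per barcode, and they shared 145 barcodes. Cells with at least 5 UMIs of *Dcn* or *Col1a2* passed the fibroblast gate (20531 pubertal and 22018 adult cells), and cells with at least 3 of 5 mural markers (*Rgs5*, *Notch3*, *Myh11*, *Acta2*, *Mcam*) and fewer than 5 *Dcn* UMIs were taken as mural cells (679 and 375). The 20 pubertal and 16 adult cells that passed both gates were counted as mural, which left 20511 and 22002 fibroblasts. All 5 fibroblast markers (*Dcn*, *Lum*, *Col1a1*, *Col1a2* and *Igfbp5*) were present in at least 25% of fibroblasts in both libraries. All 5 mural markers were present in at least 25% of mural cells. *Dcn*, *Col1a2* and the mural markers belong to the gates, so their levels were in part fixed by gating. Only *Lum*, *Col1a1* and *Igfbp5* lie outside the gates. Mural markers summed to 66.6 and 38.1 UMIs per 1000000 (CPM) in pubertal and adult fibroblasts against 17053 and 16106 in mural cells. The 5 fibroblast markers summed to 31790 and 26479 CPM in fibroblasts and to 1791 and 1583 CPM in mural cells, where 4 of the 5 were present in at least 25% of cells in both libraries. The endothelial markers summed to 35.8 and 27.4 CPM in fibroblasts and 79.5 and 43.3 in mural cells. Fibroblasts were further divided by 6 gates that overlap, so that 6424 pubertal and 7874 adult fibroblasts passed more than 1 of them. *Pi16* and *Dpp4*, markers of the mesenchymal progenitor described across tissues, were detected together in 74.1% of pubertal and 42.3% of adult fibroblasts. *Crabp1*, a retinoic acid-binding protein, was detected in 1.42% and 12.3%.

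In adult fibroblasts both PDGF receptors and the lymphatic ligand *Vegfc* were higher than at puberty, and the VEGF receptor *Kdr* was lower. A gene was called past the fold when its summed CPM differed by at least 1.5 times and reached 10 CPM in at least 1 of the libraries. Of the 10 genes, 8 reached 10 CPM, and of these 3 were past the fold upward, against 12.1% of all 8647 genes at that level, and 1 downward, against 5.09%. The median log2 ratio of those 8 genes was -0.12, and that of all genes at that level was 0.13. In mural cells *Pdgfrb* was higher in the adult library, where 14.6% of 8644 genes were higher, and *Vegfa* was lower, where 5.95% were lower.

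**Figure D1:**
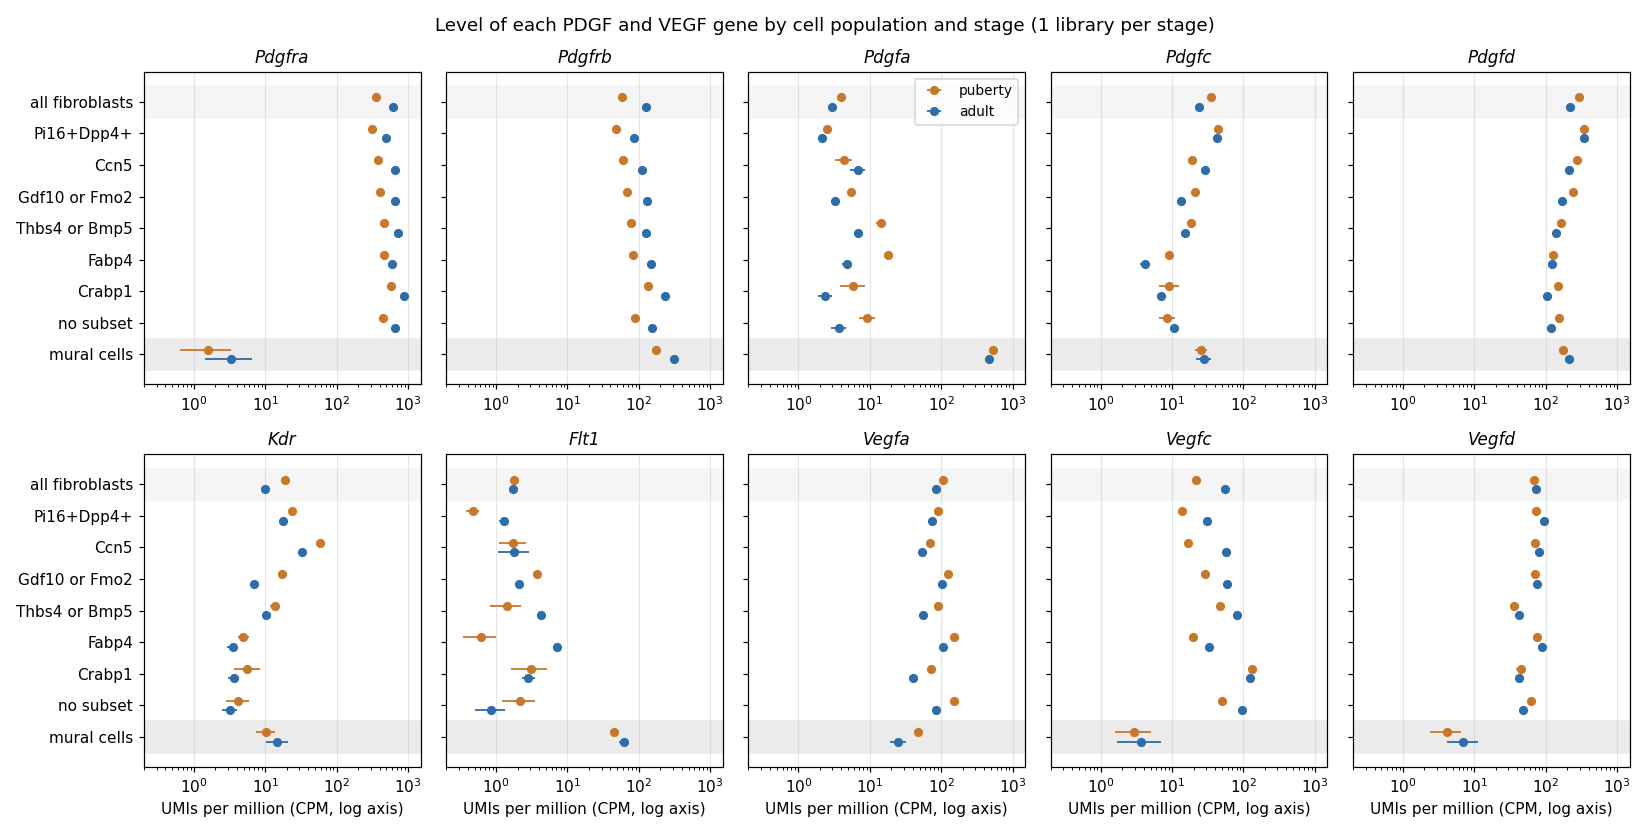
Level of each gene (x axis, CPM, log scale) in all fibroblasts, the 6 gated groups, fibroblasts in no group and mural cells, with 1 point per library and bars for the exact 95% counting interval. *Pdgfra* lies above 300 CPM in each fibroblast group and below 5 CPM in mural cells, and *Pdgfa* shows the opposite order.

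*Pdgfra*, the receptor for PDGF-A and PDGF-C, was counted at 359.8 CPM (95% interval 357 to 362) in pubertal and 616 CPM (613 to 619) in adult fibroblasts, a ratio of 1.71 (1.70 to 1.73). The receptor was thus high in fibroblasts of both libraries and higher in the adult. In the pubertal library its level ran from 317 CPM in *Pi16*+*Dpp4*+ fibroblasts to 578 CPM in *Crabp1* fibroblasts. In the adult library the same groups were lowest and highest, at 497 and 880.2 CPM. The groups between them lay close together, and the intervals of the *Thbs4* or *Bmp5* group (467 CPM), the *Fabp4* group (462 CPM) and fibroblasts in no group (450.1 CPM) overlapped at puberty. The adult level was past the fold within 5 of the 6 groups, and in the *Fabp4* group, which holds preadipocyte-like cells by that marker, the ratio was 1.28 (1.25 to 1.31). In fibroblasts of no group the ratio was 1.46 (1.41 to 1.52), short of the fold. After each cell was thinned to 3000 UMIs, *Pdgfra* was detected in 61.1% of pubertal and 76.7% of adult fibroblasts (91.8% and 94.9% without thinning). The same shares in mural cells were 0.153% and 0.915%, with median depths before thinning of 6382 and 6572 UMIs in mural cells against 11973 and 11096 in fibroblasts.

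*Pdgfrb*, the receptor for PDGF-B and PDGF-D, was at 58.5 CPM in pubertal fibroblasts and at 125 CPM in those of the adult, a ratio of 2.14 (2.10 to 2.19). In mural cells it was at 172 and 312 CPM, a ratio of 1.82 (1.64 to 2.01). Mural cells therefore had the highest level in both libraries, followed by *Crabp1* fibroblasts at 136 and 232 CPM. *Pi16*+*Dpp4*+ fibroblasts had the lowest level, at 48.2 and 84.7 CPM. The adult level was past the fold upward within all 6 fibroblast groups and in fibroblasts of no group, with ratios from 1.61 in the *Thbs4* or *Bmp5* group to 1.90 in the *Gdf10* or *Fmo2* group. The thinned share of cells with a UMI went from 14.8% to 28.9% of fibroblasts (42.2% and 62.1% unthinned) and from 37.3% to 53.4% of mural cells. In muscle cells, gated by their own markers, no *Pdgfrb* UMI was found in 28 pubertal and 74 adult thinned cells.

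Since both PDGF receptors were higher in the adult library, their detection in the same cell was counted. Both were detected in 9.57% (9.17 to 9.99) of thinned pubertal fibroblasts and in 23.1% (22.6 to 23.7) of adult fibroblasts. *Pdgfra* alone was detected in 51.5% and 53.5%, *Pdgfrb* alone in 5.27% and 5.77%, and neither in 33.6% and 17.6%. The added adult share thus lay mainly among cells with both receptors. Each receptor was detected more often in the adult, which by itself raises the share of cells with both. At puberty *Pdgfrb* was detected in 15.7% of *Pdgfra*-positive and 13.6% of *Pdgfra*-negative fibroblasts, and in the adult library in 30.2% and 24.7%. In mural cells *Pdgfrb* without *Pdgfra* made up 37.3% of cells at puberty and 52.7% in the adult, and both together occurred in 0 of 655 pubertal cells and 2 of 328 adult cells.

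**Figure D2:**
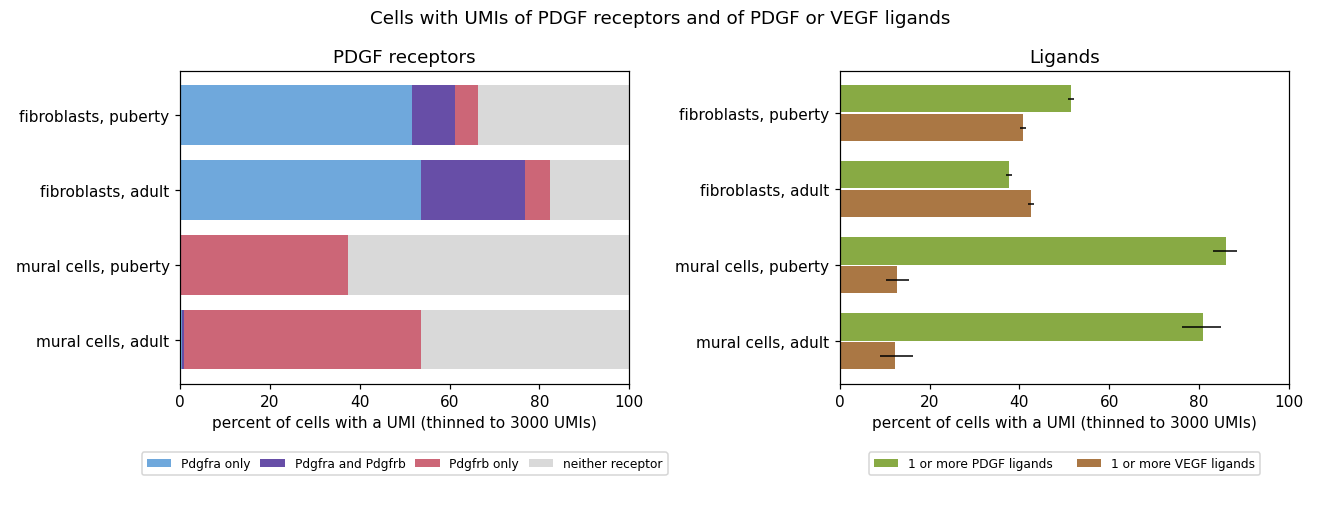
Percent of cells with a UMI after thinning to 3000 UMIs, for the PDGF receptors (left, stacked shares) and for any PDGF or VEGF ligand (right, bars with exact 95% intervals), in fibroblasts and mural cells of each library. Fibroblasts with both receptors went from 9.57% at puberty to 23.1% in the adult, and mural cells held almost no *Pdgfra*.

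*Kdr*, the main signaling receptor for VEGF-A on blood vessels, was at 18.7 CPM in pubertal fibroblasts and at 10.0 CPM in those of the adult, a ratio of 0.537 (0.511 to 0.563). It was highest in *Ccn5* fibroblasts, at 57.9 CPM at puberty and 32.8 CPM in the adult, and next in *Pi16*+*Dpp4*+ fibroblasts, at 23.4 and 17.7 CPM. Of the *Ccn5* cells, 90.2% at puberty and 72.7% in the adult were also *Pi16*+*Dpp4*+. In the *Fabp4* and *Crabp1* groups *Kdr* lay between 3.49 and 5.63 CPM, and in those groups the intervals of neighbors overlapped. The adult level was past the fold downward in the *Ccn5* group (ratio 0.566) and in the *Gdf10* or *Fmo2* group (17.5 and 6.95 CPM, ratio 0.398), and in *Pi16*+*Dpp4*+ fibroblasts the ratio was 0.754 (0.716 to 0.793). The thinned share of *Kdr*-positive cells was 4.57% and 2.32% of fibroblasts (14.1% and 7.47% unthinned), against 0 of 28 and 0 of 74 muscle cells, which allows up to 12.3% and 4.86% by the exact interval. Because these small groups set a wide limit, the share in mural cells is also given, 0.916% and 0.305%.

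*Kdr* is usually read as an endothelial gene, so its counts in fibroblasts were set beside those of cells with fewer than 5 *Dcn* UMIs and at least 3 of 5 endothelial markers (*Pecam1*, *Cdh5*, *Emcn*, *Plvap* and *Cldn5*). There were 11 such endothelial cells at puberty and 63 in the adult, with 777 and 979.8 CPM of *Kdr* and 3108 and 2953 CPM of *Flt1*, which is not in the gate. The number of *Flt1* UMIs per *Kdr* UMI was 4.00 (2.70 to 6.09) and 3.01 (2.58 to 3.53) in endothelial cells and 0.0966 (0.0875 to 0.106) and 0.174 (0.157 to 0.193) over all fibroblasts. *Kdr* was detected in 2890 pubertal and 1643 adult fibroblasts. At puberty *Flt1* was at 0.764 CPM in these cells and 2.005 CPM in the fibroblasts without *Kdr*, and in the adult at 9.89 and 0.890 CPM, so the direction differed between the libraries. *Cdh5*, the endothelial cadherin, was at 0.271 and 0.737 CPM at puberty and at 1.70 and 0.417 CPM in the adult. In the 413 pubertal and 190 adult fibroblasts with at least 3 *Kdr* UMIs, *Flt1* was at 2.04 and 32.8 CPM and *Cdh5* at 1.10 and 8.03 CPM. *Flt1* and *Cdh5*, each detected in a small share of fibroblasts, were thus higher in adult fibroblasts with *Kdr* than in those without. *Pecam1* and *Emcn* were also higher with *Kdr* in the adult. *Cldn5* was at 0.124 CPM with *Kdr* and 0.0347 CPM without it in the adult, with overlapping intervals. *Plvap*, another marker of the gate, was lower with *Kdr* in both libraries. In the adult *Plvap* was detected in 14.2% of fibroblasts without *Kdr* and in 22.2% of endothelial cells. The part of endothelial RNA in the *Kdr* level was not tested beyond leaving out the cells described next. *Pdgfra* was detected in 93.7% and 95.8% of *Kdr*-positive fibroblasts, against 91.5% and 94.8% of fibroblasts without *Kdr*. *Pi16*, which belongs to a gate, was detected in 97.5% and 87.8%, against 76.1% and 50.1%. Median depths were 13270 and 13698 UMIs with *Kdr* and 11736 and 10858 UMIs without it. Leaving out the 3 pubertal and 12 adult fibroblasts with at least 3 endothelial markers gave 18.6 and 9.90 CPM of *Kdr*.

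*Flt1*, which binds VEGF-A, VEGF-B and placental growth factor, was at 1.803 and 1.74 CPM in fibroblasts and at 45.5 and 62.3 CPM in mural cells. The level in mural cells rested on few cells, since *Flt1* was detected in 1.62% of pubertal and 4.27% of adult mural cells. Without the 5 pubertal and 1 adult mural cells with at least 3 endothelial markers it was 3.93 and 13.8 CPM, higher in the adult past the fold, whereas in mural cells with at least 2 *Myh11* UMIs it was lower (25.01 and 9.03 CPM, ratio 0.361), so that its direction depended on which cells were counted. Without the mural cells that carried endothelial markers, *Kdr* went from 10.2 and 14.8 CPM to 0.231 and 0.417 CPM, which was 1 UMI in each library. Within fibroblasts the highest adult value was 7.10 CPM in the *Fabp4* group, detected in 1.27% of its cells. No fibroblast group reached 10 CPM of *Flt1* in either library.

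*Pdgfa*, the ligand of PDGFRα, was at 531 CPM in pubertal mural cells and at 461 CPM in those of the adult, a ratio of 0.869 (0.809 to 0.934), and was detected in 77.3% and 68.0% of thinned mural cells. In fibroblasts it was at 3.97 and 2.96 CPM and detected in 0.948% and 0.739% of thinned cells. The order was therefore the reverse of that of its receptor. Among fibroblasts the *Fabp4* group had 17.9 CPM at puberty and 4.82 CPM in the adult, and the *Thbs4* or *Bmp5* group had 14.3 and 6.75 CPM. Both were past the fold downward with stage, at ratios of 0.269 and 0.473. Both groups also carried more mural marker RNA than other fibroblasts. In the *Fabp4* group 4 of 5 markers were past the fold, where 9.75% of all genes were. In the *Thbs4* or *Bmp5* group it was 2 of 5, where 6.08% of all genes were. The number of *Pdgfa* UMIs per *Myh11* UMI was 0.0700 and 0.0583 in *Fabp4* fibroblasts, 0.0840 and 0.245 in the *Thbs4* or *Bmp5* group and 0.0664 and 0.0602 in mural cells. Without fibroblasts carrying at least 3 mural markers (146 pubertal and 64 adult cells of all fibroblasts) the *Fabp4* group had 2.12 and 1.42 CPM. *Pdgfa* was also counted in Schwann-like cells gated by their own markers, with 381 CPM over the 51 cells at puberty and 164 CPM over the 49 cells of the adult.

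*Pdgfc*, which signals through PDGFRα, was at 34.6 CPM in pubertal fibroblasts and at 23.5 CPM in those of the adult, a ratio of 0.680 (0.658 to 0.703) that was short of the fold. Its counts lay mostly in *Pi16*+*Dpp4*+ fibroblasts, with 43.8 CPM inside the gate and 3.72 outside it at puberty, and 42.2 and 5.57 in the adult. Within that gate the stages had a ratio of 0.962 (0.930 to 0.996). By group the direction differed, with 19.0 and 29.1 CPM in the *Ccn5* group (ratio 1.53, 1.29 to 1.82) and 21.2 and 13.3 CPM in the *Gdf10* or *Fmo2* group (ratio 0.625, 0.587 to 0.667). These groups overlap the *Pi16*+*Dpp4*+ gate, which held 90.2% and 72.7% of *Ccn5* cells and 55.9% and 30.2% of *Gdf10* or *Fmo2* cells. Mural cells had 25.8 and 28.0 CPM. The thinned share of *Pdgfc*-positive cells was 8.55% and 5.68% of fibroblasts and 7.63% and 6.10% of mural cells.

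*Pdgfd*, the PDGFRβ ligand, was at 289.6 CPM in pubertal fibroblasts and at 219 CPM in those of the adult, a ratio of 0.758 (0.749 to 0.766). Like *Pdgfc* it was highest in *Pi16*+*Dpp4*+ fibroblasts, at 341 and 343 CPM, and had 117 and 100.4 CPM in the fibroblasts outside that gate. The ratio of stages inside the gate was 1.01 (0.994 to 1.02), and its interval includes no difference. The lowest pubertal group was *Fabp4* at 125 CPM, and the lowest adult group was *Crabp1* at 103 CPM. Mural cells had 176 and 215 CPM, and *Pdgfd* was also found in endothelial cells, at 413 (240.5 to 661) and 699 (593 to 818) CPM. The thinned share of positive fibroblasts was 47.4% and 34.7%, and 3.57% of 28 and 1.35% of 74 muscle cells had a UMI. At least 1 of the 3 PDGF ligands was detected in 51.5% (50.8 to 52.2) of pubertal and 37.7% (37.0 to 38.3) of adult fibroblasts, and in 86.0% and 80.8% of mural cells.

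*Vegfa*, the main blood vessel growth factor, was at 107 CPM in pubertal fibroblasts and at 84.7 CPM in those of the adult, a ratio of 0.788 (0.774 to 0.803). Its highest levels were in *Fabp4* fibroblasts (152 and 106 CPM), with fibroblasts in no group next at puberty (149 CPM) and the *Gdf10* or *Fmo2* group next in the adult (102 CPM), and in each library the intervals of those neighbors overlapped. The lowest fibroblast levels were 70.3 CPM in the pubertal *Ccn5* group and 40.6 CPM in the adult *Crabp1* group. The adult level was past the fold downward in the *Crabp1* group (ratio 0.570), in fibroblasts of no group (0.568) and in the *Thbs4* or *Bmp5* group (0.615). In mural cells *Vegfa* was at 48.0 and 25.1 CPM, a ratio of 0.524 (0.387 to 0.700). The thinned share of *Vegfa*-positive cells was 24.3% and 19.4% of fibroblasts and 11.1% and 8.84% of mural cells.

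*Vegfc*, the lymphatic growth factor, was at 21.7 CPM in pubertal fibroblasts and at 55.5 CPM in those of the adult, a ratio of 2.56 (2.48 to 2.64). With equal weight for each combination of gates, described after the single genes, the ratio was 1.42 and short of the fold. In *Crabp1* fibroblasts it was already 131 CPM at puberty and was 122 CPM in the adult, a ratio of 0.931 (95% interval 0.852 to 1.02), while in *Pi16*+*Dpp4*+ fibroblasts it went from 13.6 to 30.9 CPM, a ratio of 2.27 (2.16 to 2.38). The other 4 groups were also past the fold upward, up to 3.47 in the *Ccn5* group (16.7 and 57.8 CPM). The gap between *Crabp1* fibroblasts and all other fibroblasts together was 6.63-fold at puberty and 2.68-fold in the adult library. Those others include the *Pi16*+*Dpp4*+ fibroblasts, which had the lowest level of the fibroblast groups. Next below *Crabp1* fibroblasts were fibroblasts in no group, at 50.4 and 95.3 CPM. The *Thbs4* or *Bmp5* group followed at 47.5 and 80.0 CPM. A *Vegfc* UMI was found in 26.9% and 25.1% of thinned *Crabp1* fibroblasts, in 3.46% and 6.98% of *Pi16*+*Dpp4*+ fibroblasts, and in 0.763% and 1.22% of mural cells. *Vegfa* was detected in 19.0% of *Vegfc*-positive and 24.6% of *Vegfc*-negative pubertal fibroblasts, and in 13.4% and 20.3% of adult fibroblasts.

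*Vegfd*, the other lymphatic ligand, was at 68.5 CPM in pubertal fibroblasts and at 73.4 CPM in those of the adult, a ratio of 1.07 (1.05 to 1.09). It was past the fold with stage in no fibroblast group. At puberty the *Fabp4*, *Pi16*+*Dpp4*+, *Gdf10* or *Fmo2* and *Ccn5* groups ran from 76.1 to 69.7 CPM with overlapping intervals, and the *Crabp1* group (44.8 CPM) and the *Thbs4* or *Bmp5* group (35.5 CPM) were lower. In the adult *Pi16*+*Dpp4*+ fibroblasts were highest at 94.1 CPM, and the *Crabp1* and *Thbs4* or *Bmp5* groups were again lowest at 42.9 and 42.3 CPM. Mural cells had 4.07 and 7.01 CPM. A *Vegfd* UMI was found in 17.0% of thinned fibroblasts of each library and in 0.763% and 2.44% of mural cells, and at least 1 of the 3 VEGF ligands in 40.9% (40.2 to 41.5) and 42.7% (42.0 to 43.4) of fibroblasts.

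The makeup of the fibroblast pool differed between the stages, so the stage ratios were also computed with equal weight for each of the 16 combinations of gates held by at least 50 cells in each library. *Pdgfrb* (1.73) and *Kdr* (0.662) stayed past the fold, whereas *Pdgfra* (1.47) and *Vegfc* (1.42) did not, so that 2 genes in place of 4 were called. *Pdgfc* went from 0.680 to 1.08 and *Pdgfd* from 0.758 to 1.004 under equal weight. When every cell was given its own CPM, the ratios were 1.75 for *Pdgfra*, 2.18 for *Pdgfrb* and 2.66 for *Vegfc*, and the log2 ratio of *Kdr* was -0.99 in place of -0.90. *Col1a2*, a gate gene, was itself at 11062 and 6951 CPM. Among genes induced by tissue dissociation, 4 of 10 were higher in adult fibroblasts, where 12.1% of all genes were, and 0 were lower, where 5.09% were. Their summed level was 21486 and 26949 CPM, and their part in the stage differences was not tested.

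**Figure D3:**
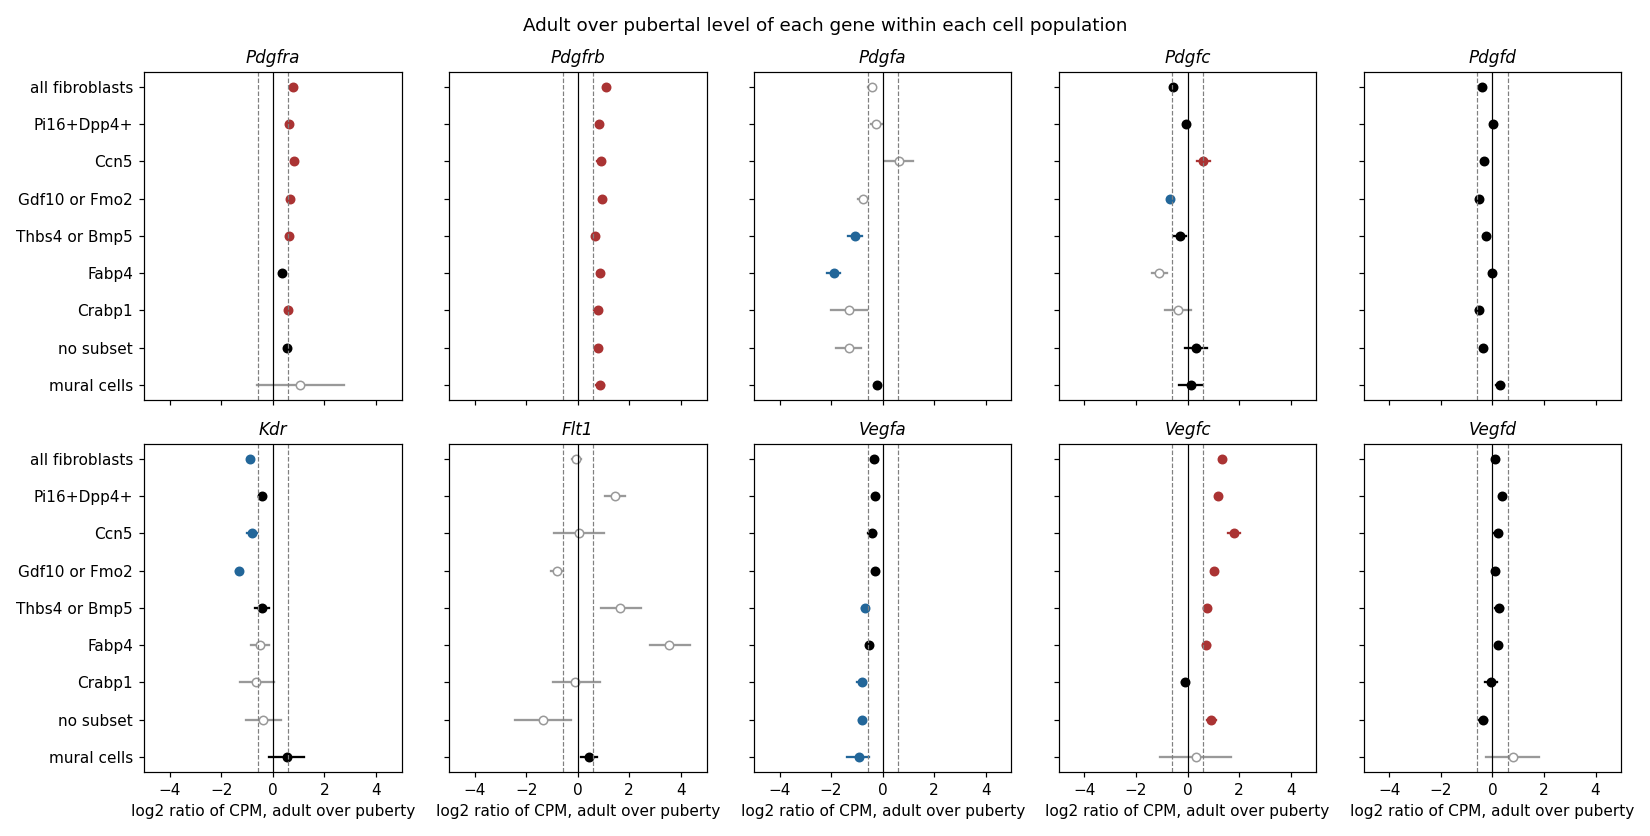
Log2 ratio of CPM, adult over puberty, for each gene in each population, with exact 95% counting intervals. Dashed lines mark the 1.5-fold bounds, red and blue points are past them, black points are not, and open gray points are below 10 CPM in both libraries. *Pdgfrb* is past the bound in each population shown, and *Vegfc* in each fibroblast group but *Crabp1*.

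In mural cells 7 of the 10 genes reached 10 CPM, of which *Pdgfrb* was past the fold upward and *Vegfa* downward. Most cells of the gate carried *Myh11*, the smooth muscle myosin, since 670 of 679 pubertal and 326 of 375 adult mural cells had at least 2 of its UMIs. In those cells *Pdgfrb* was at 170.2 and 276 CPM, a ratio of 1.62 (1.46 to 1.81), and *Vegfa* at 48.4 and 25.3 CPM. The 6 pubertal and 26 adult mural cells with no *Myh11* UMI had 482 (249 to 842) and 737 (592 to 907) CPM of *Pdgfrb*. *Rgs5*, a pericyte marker used in the gate, was at 439.9 CPM in pubertal mural cells and at 1515 CPM in those of the adult, while *Myh11* was at 7995 and 7658 CPM, and the part of the *Rgs5* difference in that of *Pdgfrb* was not tested. The 5 epithelial markers summed to 8.83 and 46.6 CPM in mural cells, and their part was not tested. *Pdgfc* (1.09, 0.792 to 1.48) and *Pdgfd* (1.22, 1.09 to 1.37) were short of the fold.

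Within each library, fibroblasts and mural cells divided the 10 genes between them. With the same direction in both libraries, 7 of 10 were past the fold, where 47.9% of 9778 genes were. Higher in fibroblasts were *Pdgfra* (227-fold at puberty, 187-fold in the adult), *Vegfd* (16.8 and 10.5), *Vegfc* (7.36 and 14.9) and *Vegfa* (2.24 and 3.37). Higher in mural cells were *Pdgfa* (134-fold and 156-fold), *Flt1* (25.2 and 35.7) and *Pdgfrb* (2.93 and 2.49). The *Flt1* value is the one that rested on a few mural cells with endothelial markers. *Pdgfc*, *Pdgfd* and *Kdr* were not past the fold in the same direction in both libraries.

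Among the 6 fibroblast groups the genes moved in opposing sets. Against all other fibroblasts, *Pi16*+*Dpp4*+ cells had 5 of the 8 genes at 10 CPM past the fold in both libraries, where 17.3% of all genes were. *Pdgfc* (11.8-fold and 7.57-fold), *Kdr* (9.35 and 6.73) and *Pdgfd* (2.92 and 3.41) were higher, and *Pdgfrb* (ratios 0.519 and 0.515) and *Vegfc* (0.278 and 0.390) were lower. *Pdgfra* had ratios of 0.631 and 0.680, the second just inside the bound. *Crabp1* cells showed the reverse for those 5 genes, with 8 of 8 genes past the fold where 18.9% of all genes were. In *Crabp1* cells *Vegfc* (6.63 and 2.68), *Pdgfrb* (2.38 and 2.12) and *Pdgfra* (1.62 and 1.52) were higher, and *Pdgfc* (0.261 and 0.270), *Kdr* (0.298 and 0.329), *Pdgfd* (0.506 and 0.434), *Vegfa* (0.660 and 0.445) and *Vegfd* (0.650 and 0.551) were lower. *Pi16*+*Dpp4*+ cells were 74.1% and 42.3% of all fibroblasts but 24.3% and 11.8% of *Crabp1* cells. The fibroblasts set against *Crabp1* cells thus held many *Pi16*+*Dpp4*+ cells, so the 2 comparisons are not independent. Fibroblasts in no group were also low in *Pdgfc* (8.61 and 10.8 CPM) and *Kdr* (4.16 and 3.20 CPM). When *Crabp1* cells in no other group (103 and 1061 cells) were set against fibroblasts in no group, *Pdgfra*, *Vegfc*, *Pdgfd* and *Kdr* were no longer past the fold.

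**Figure D4:**
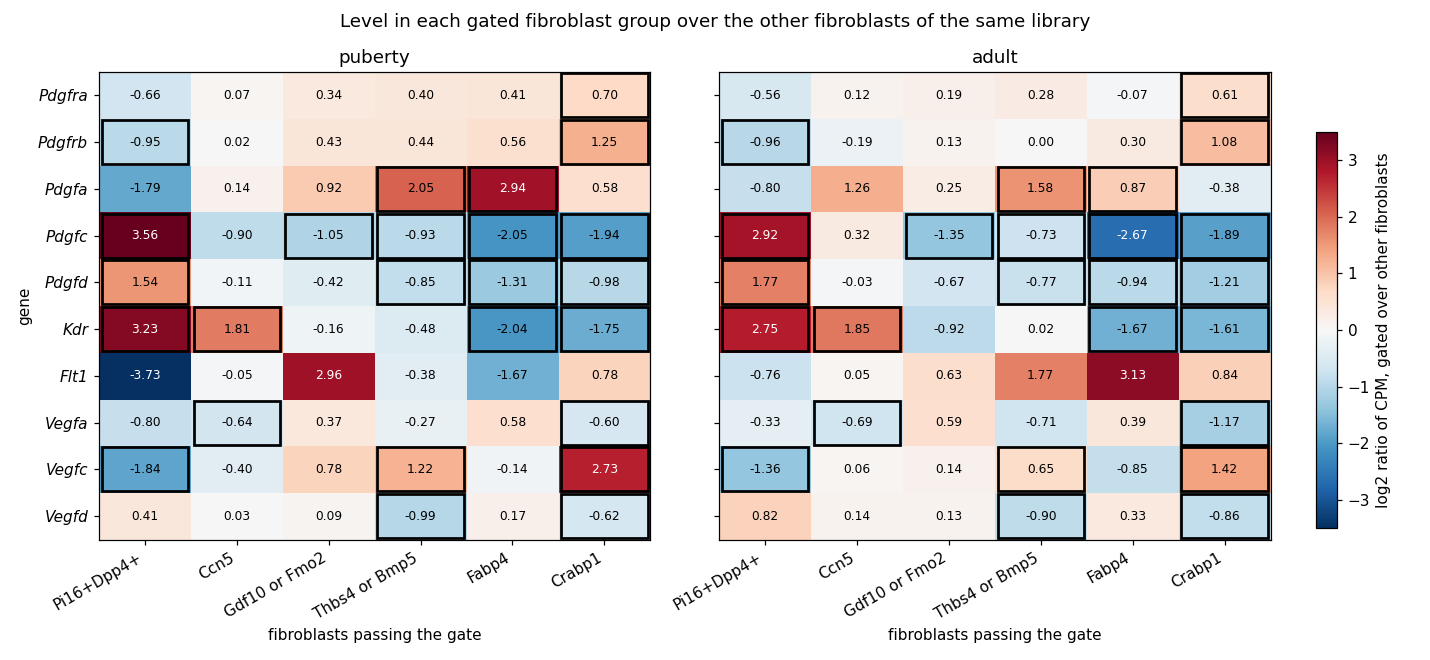
Log2 ratio of CPM in fibroblasts passing each gate over all other fibroblasts of the same library, for puberty (left) and adult (right), with black frames where the ratio was past 1.5-fold in the same direction in both libraries and reached 10 CPM. *Pdgfc*, *Pdgfd* and *Kdr* are high in *Pi16*+*Dpp4*+ cells and low in *Crabp1* cells, and *Pdgfrb* and *Vegfc* have the opposite signs.

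The remaining groups differed in fewer genes. In the *Thbs4* or *Bmp5* group 5 of 9 genes were past the fold where 6.08% of all genes were. *Pdgfa* (4.15 and 2.99) and *Vegfc* (2.33 and 1.57) were higher and *Pdgfc* (0.523 and 0.602), *Pdgfd* (0.555 and 0.587) and *Vegfd* (0.505 and 0.535) were lower. In *Fabp4* cells it was 4 of 9 genes where 9.75% of all genes were, with *Pdgfa* higher (7.67 and 1.83) and *Pdgfc* (0.241 and 0.157), *Pdgfd* (0.404 and 0.520) and *Kdr* (0.243 and 0.313) lower. Without fibroblasts carrying at least 3 mural markers, *Pdgfa* was past the fold in neither of these groups. When cells in exactly 1 group were set against fibroblasts in no group, *Pdgfa*, *Pdgfc* and *Vegfc* were no longer past the fold in the *Thbs4* or *Bmp5* group (275 and 830 cells), nor were *Pdgfa*, *Pdgfd* and *Kdr* in the *Fabp4* group (506 and 541 cells). *Ccn5* cells had 2 of 8 genes past the fold where 5.16% of all genes were, *Kdr* higher (3.49 and 3.61) and *Vegfa* lower (0.643 and 0.620). The *Vegfa* call was lost when the gates were applied to thinned cells and when cells in exactly 1 group (16 and 21 cells) were used. The *Gdf10* or *Fmo2* group had 1 of 8, *Pdgfc* (0.483 and 0.391), where 4.28% of all genes were.

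Genes that act with these ligands and receptors moved in part alongside them. Their stage ratios were not recomputed with equal weight for each combination of gates, so the part of the differing makeup was not tested. Over all genes at 10 CPM, 12.1% were higher and 5.09% lower in adult fibroblasts. In adult mural cells the shares were 14.6% and 5.95%. Of 7 other family members and neuropilins, 4 reached 10 CPM in fibroblasts. *Nrp1* (139.6 and 226 CPM, ratio 1.62) and *Nrp2* (9.33 and 33.3 CPM, ratio 3.57), co-receptors for VEGFs, were higher in the adult, and *Pdgfrl*, a PDGF receptor-like gene, was lower (71.3 and 28.7 CPM, ratio 0.402). In mural cells *Nrp1* (1.63) and *Nrp2* (2.35) were past the fold as well. Of 6 genes for ligand processing and uptake, *Ccbe1* (14.5 CPM in the adult, ratio 2.07) and *Adamts3* (14.8 and 29.3 CPM, ratio 1.98), which act together to activate VEGF-C, were higher in adult fibroblasts, and *Pcsk5*, a proprotein convertase, was lower (606 and 396 CPM, ratio 0.654). In mural cells *Lrp1* was higher (1.90) and *Plat* was lower (0.538).

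Feedback genes of receptor tyrosine kinase signaling were read as a separate list of 6 genes, all of which reached 10 CPM in fibroblasts. In the adult *Dusp6* (9.50 and 35.3 CPM, ratio 3.71), *Spry1* (17.3 and 59.4 CPM, 3.44), *Spry4* (6.92 and 21.9 CPM, 3.17) and *Spred2* (27.1 and 61.2 CPM, 2.25) were higher and *Spry2* was lower (113 and 57.9 CPM, 0.512). A split between *Spry2* and the others was also present in 2 of the 6 groups. In *Crabp1* cells 5 of the 6 were higher than in other fibroblasts, among them *Dusp6* (12.1 and 5.72) and *Spry1* (8.93 and 3.13). *Spry2* was lower there (0.466 and 0.610), and 18.9% of all genes were past the fold either way. In *Pi16*+*Dpp4*+ cells 5 of the 6 were lower and *Spry2* was higher (2.72 and 1.93), where 17.3% of all genes were past the fold either way. Each of the remaining groups had at most 1 of the 6 genes past the fold. These genes respond to many receptors, and which receptor they followed was not tested. *Crabp1* cells made up 1.42% of pubertal and 12.3% of adult fibroblasts, and the part of this makeup in the stage ratios of the feedback genes was not tested. In mural cells 3 of 6 were higher in the adult, *Dusp6* (4.22), *Spry1* (1.75) and *Spred2* (1.65), where 14.6% of all genes were. *Nrp1* (1.72 and 2.81), *Nrp2* (4.94 and 2.41) and *Adamts3* (6.44 and 2.38) were also higher in *Crabp1* cells, where *Vegfc* was high. *Ccbe1* was instead highest relative to other fibroblasts in the *Gdf10* or *Fmo2* group (20.5 and 1.98). Of 12 genes induced by hypoxia, 9 reached 10 CPM in fibroblasts and 0 were past the fold between the stages. Of 5 genes of the angiopoietin system 4 reached 10 CPM, 2 were higher in the adult and 0 were lower. Over all genes at that level, 12.1% were higher and 5.09% lower.

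**Figure D5:**
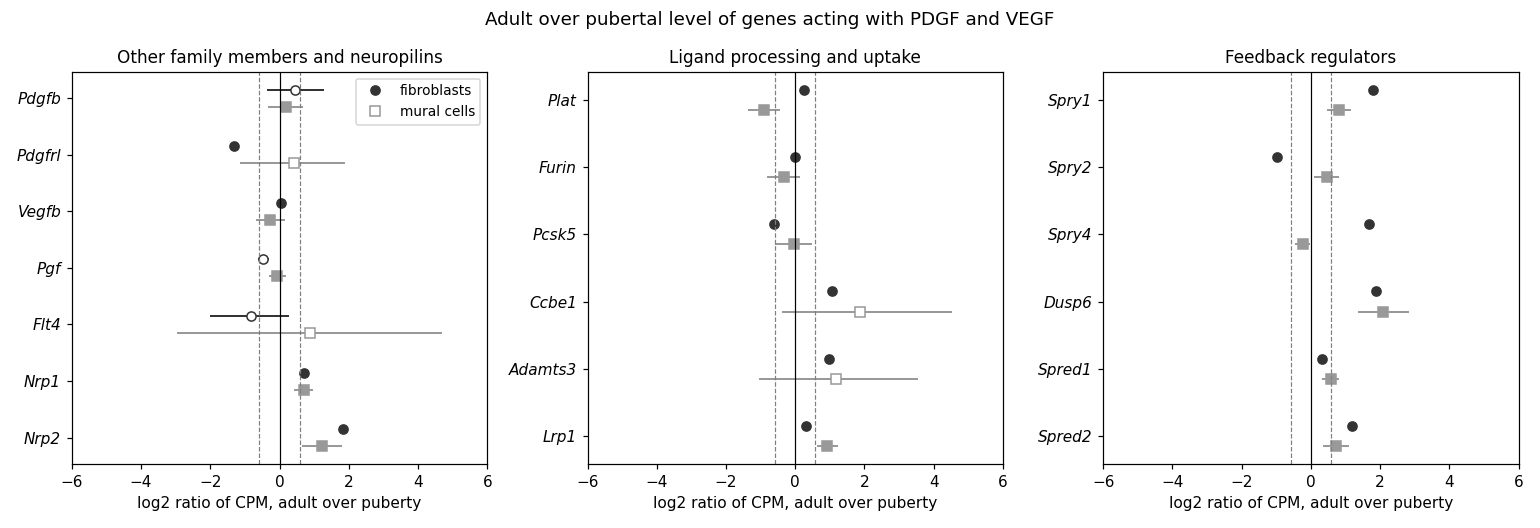
Log2 ratio of CPM, adult over puberty, for other family members and neuropilins, ligand processing genes and feedback genes in fibroblasts (circles) and mural cells (squares), with exact 95% counting intervals. Open symbols are below 10 CPM in both libraries and dashed lines mark the 1.5-fold bounds, past which *Nrp1* and *Nrp2* lie in both populations.

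To see which genes had the most similar pattern, each gene was correlated with 5173 genes over 16 profiles, which were mural cells, the 6 groups and fibroblasts in no group in each library. The correlation (Pearson's r of log2 CPM with 5 CPM added) is a description, since the profiles share libraries and cells, and mural cells stand apart from the rest. *Vegfc* was most like *App* (0.976), *Foxn3* (0.974) and *Adamts3* (0.971), the last being the protease that acts on VEGF-C. *Pdgfa* was most like *Ppp1r14a* (0.993), an inhibitor of smooth muscle myosin phosphatase, *Tinagl1* (0.991) and *Fbxl22* (0.991). *Pdgfra* was most like *Mrc2* (0.995), *Clmp* (0.994) and *Lum* (0.993), a small collagen-binding proteoglycan. The closest genes to *Kdr* were less alike, *Ccdc6* (0.876), *Etfa* (0.863) and *Tle5* (0.842). For *Pdgfc* they were *Prkg2* (0.912), *Iqsec1* (0.910) and *Acadsb* (0.909), and for *Pdgfd* they were *Tmem100* (0.925), *Clip1* (0.910) and *Plce1* (0.909). For *Pdgfrb* they were *Setd3* (0.965), *Xpo1* (0.965) and *Spen* (0.962), and for *Flt1* they were *Pck2* (0.969), *Ephx3* (0.968) and *Cox4i2* (0.966). *Vegfa* was most like *Nlrc5* (0.93955), *Gas5* (0.913) and *Itga5* (0.905), and *Vegfd* was most like *Sp140* (0.988), *Vat1* (0.982) and *Npc2* (0.980). The most similar pairs among the 10 genes themselves were *Pdgfa* and *Flt1* (0.923), *Pdgfra* and *Vegfd* (0.884) and *Pdgfc* and *Pdgfd* (0.878). Next were *Pdgfra* and *Vegfc* (0.812), *Pdgfd* and *Kdr* (0.811) and *Pdgfc* and *Kdr* (0.739), and *Pdgfra* and *Pdgfa* were opposed (-0.963). The first pair includes the *Flt1* level that rested on a few mural cells. *Pdgfra* and *Vegfd* were both lowest in mural cells, but their order among fibroblast groups differed. In the adult, *Pi16*+*Dpp4*+ cells were lowest for *Pdgfra* (497 CPM) and highest for *Vegfd* (94.1 CPM). *Crabp1* cells were highest for *Pdgfra* (880.2 CPM) and had 42.9 CPM of *Vegfd*.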

How the data were processed

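Stromal cells of 1 pubertal and 1 adult library were analyzed. Per the labels, libraries were made with the 10x Genomics Chromium GEM-X 3′ v4 kit, and the submitters' processing notes name Cell Ranger 8.0.1 and build mm10. The authors deposited whole-number UMI counts for each gene in each barcode, not normalized. Of the gene IDs, 1735 of 33696 are not in GENCODE release M21 (GRCm38). Cells with at least 500 genes and at most 10% mitochondrial UMIs were kept (21534 and 22972), and doublets were kept in the main values. Counts were summed per population and scaled to CPM, with exact Poisson intervals for sums, conditional binomial intervals for ratios and Clopper-Pearson intervals for shares, all at 95%. Groups were *Pi16* and *Dpp4* detected, *Ccn5* or *Fabp4* at 2 or more UMIs, *Gdf10* or *Fmo2*, *Thbs4* or *Bmp5*, and *Crabp1* detected. Scripts ran in Python 3.11.15 with numpy 2.4.6, scipy 1.17.1, pandas 2.3.3 and scanpy 1.11.5 and were tested on simulated data. All 10 genes were named in each comparison, as were list genes past the fold, at most 8 per comparison, and the 3 most similar genes with at least 50 CPM in a profile. Genes, lists and tests were chosen with earlier results of these data known.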

Additional observations from a re-analysis of the deposited data

Results flagged for a closer look

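*Pdgfc* moved in opposite directions with stage in 2 fibroblast groups, with an adult over pubertal ratio of 1.53 in *Ccn5* fibroblasts and 0.625 in *Gdf10* or *Fmo2* fibroblasts. The difference between the groups was not tested, since each stage had 1 library, and the groups share cells (491 pubertal and 301 adult cells passed both gates).

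Some cells passed neither the fibroblast nor the mural gate (344 pubertal and 595 adult cells, with median depths of 2956 and 2960 UMIs). They were left out of the comparisons of fibroblasts and mural cells and carried VEGF receptors above the level of both. *Kdr* was at 44.4 CPM at puberty and 100.2 CPM in the adult, and *Flt1* at 129 and 307 CPM. These cells include the 11 pubertal and 63 adult cells with at least 3 endothelial markers, which were set beside fibroblasts for *Kdr* and *Flt1*. The cells of neither gate had 51 and 234 *Kdr* UMIs, and those endothelial cells had 32 and 216.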

How the results depend on the processing

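The 4 genes past the fold between stages in fibroblasts were 3 to 5 under other scalings, minimum levels, quality filters, gates and doublet removal, and 2 with equal weight for each combination of gates. The 2 in mural cells were 2 to 3 under other settings and 4 when the cells passing both gates (20 pubertal and 16 adult) were left out, the added genes being *Kdr* and *Flt1*. *Kdr* and *Flt1* in mural cells changed sign between settings and rest on a few cells. The 7 genes between fibroblasts and mural cells were 7 to 8, and the 25 gene and group pairs were 19 to 27. Removing predicted doublets (8.67% and 9.27% of barcodes) ended the *Pdgfa* calls in the *Fabp4* and *Thbs4* or *Bmp5* groups. *Pdgfa* in fibroblasts had a ratio from 0.509 to 1.09 and *Flt1* from 0.362 to 1.59, both below 10 CPM. Of 140 log2 ratios recomputed, 103 stayed within the counting interval, 37 did not, and 0 called ones changed sign. Without fibroblasts with endothelial markers, an alternative added after seeing the data, 4 genes were called as before. No paired analysis was possible because each stage had 1 library.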
